A study of Mus musculus with 2 samples.

Results

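The genes described here encode the growth factors of the FGF, PDGF, EGF and HGF families, the receptor tyrosine kinases that bind them, and the stem cell factor pair Kitl and Kit. They were picked by a rule on gene symbols, set with earlier results of these data known, and comprise 52 of the 18193 genes that the array's annotation names through a single symbol. These 52 genes are read by 113 of 45101 probe sets, a probe set being several short probes against 1 stretch of a transcript. Of the 52, 33 encode secreted or membrane-anchored ligands, 12 encode receptor kinases, 2 encode receptor-like proteins (Fgfrl1, Pdgfrl), 4 encode FGF-related proteins that stay inside the cell (Fgf11 to Fgf14), and Fgfr1op2 shares only its name with the receptors.

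The arrays came from C2C12 cells, a mouse myoblast line that fuses into multinucleated myotubes when serum is lowered. One group carried shLrrfip1a, a hairpin that depletes Lrrfip1, and the other carried a control hairpin that the sample labels spell shLCUI and the series text spells shLUCI. Both were grown with 10% fetal bovine serum, kept for 5 days with 2% horse serum, and lysed for total RNA. Each group was read on 1 Affymetrix array. Without replicates, neither a p-value nor an error between cultures exists for any value below. The sources used here do not give the hairpin vector or say whether cells were clones or pools.

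Growth factors of these families bind receptor tyrosine kinases, which pair, phosphorylate each other and recruit adaptors that switch on the RAS, RAF, MEK and ERK cascade and the PI3 kinase and AKT cascade. FGFs need heparan sulfate as a co-factor, many EGF family ligands are cut from the membrane by ADAM proteases, and HGF, PDGF-C and PDGF-D are activated by other proteases. In muscle, FGF and HGF signals keep myoblasts cycling and hold back differentiation, PDGFs are best known as signals to mesenchymal cells, and neuregulins act through ErbB receptors at the neuromuscular junction. LRRFIP1, also called GC-binding factor 2, was described in human cells as a repressor that binds GC-rich promoter DNA, and EGFR and PDGFA are among its reported targets.

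The promoters of these reported targets, and of Kitl and Pdgfc, 2 of the 3 genes past 2-fold below (Hbegf is the other), are shown because GC-rich promoter DNA is what LRRFIP1 was described to bind. Each window runs from 250 bases before to 50 bases after a transcript start in RefSeq (GRCm38.p6), 5′ to 3′ on the gene's strand, and capitals mark GGGCGG or its reverse complement CCGCCC, the GC box.
Egfr, chr11:16751953-16752252, plus strand: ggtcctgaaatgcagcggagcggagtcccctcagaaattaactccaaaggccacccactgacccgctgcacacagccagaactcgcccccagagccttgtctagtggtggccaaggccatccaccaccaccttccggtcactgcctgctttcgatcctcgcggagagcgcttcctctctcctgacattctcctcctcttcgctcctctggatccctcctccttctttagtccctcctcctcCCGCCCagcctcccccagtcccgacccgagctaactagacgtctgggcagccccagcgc
Pdgfa, chr5:138994895-138995194, minus strand: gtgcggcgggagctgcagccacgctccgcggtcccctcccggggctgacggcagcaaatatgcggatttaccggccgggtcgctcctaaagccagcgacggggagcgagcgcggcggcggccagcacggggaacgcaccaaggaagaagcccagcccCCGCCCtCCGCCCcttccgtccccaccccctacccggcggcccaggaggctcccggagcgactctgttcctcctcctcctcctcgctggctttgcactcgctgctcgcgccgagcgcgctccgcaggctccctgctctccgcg
Pdgfa, second start, chr5:138994232-138994531, minus strand: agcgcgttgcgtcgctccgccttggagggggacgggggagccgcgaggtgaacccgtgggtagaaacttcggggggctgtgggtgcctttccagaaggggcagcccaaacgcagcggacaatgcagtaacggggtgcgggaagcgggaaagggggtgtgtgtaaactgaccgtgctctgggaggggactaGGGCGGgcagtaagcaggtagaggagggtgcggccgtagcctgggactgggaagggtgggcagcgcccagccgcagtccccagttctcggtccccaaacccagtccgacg
Kitl, chr10:100015571-100015870, plus strand: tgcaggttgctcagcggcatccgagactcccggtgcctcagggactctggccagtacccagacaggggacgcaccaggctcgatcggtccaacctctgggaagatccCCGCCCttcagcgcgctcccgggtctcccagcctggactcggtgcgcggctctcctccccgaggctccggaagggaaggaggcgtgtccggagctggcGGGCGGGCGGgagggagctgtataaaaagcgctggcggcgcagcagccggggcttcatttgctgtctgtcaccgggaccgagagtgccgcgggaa
Pdgfc, chr3:81036166-81036465, plus strand: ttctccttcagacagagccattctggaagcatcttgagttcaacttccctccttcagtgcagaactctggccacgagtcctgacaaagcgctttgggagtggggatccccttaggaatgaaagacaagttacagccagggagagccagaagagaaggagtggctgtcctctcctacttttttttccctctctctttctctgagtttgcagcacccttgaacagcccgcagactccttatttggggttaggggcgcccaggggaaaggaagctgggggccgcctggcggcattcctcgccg
The Egfr window held 62.3% G and C and 1 GC box. The Pdgfa windows held 73.3% and 67.0%, with 2 boxes and 1. Kitl had 68.7% and 3 boxes, of which 2 overlap, and Pdgfc had 55.0% and none. Over 32851 promoter windows in the table the median was 52.7% G and C, and 35.7% held at least 1 GC box on either strand. Of 49 windows that 37 of the 52 genes had in the table, 57.1% held a box and the median was 63.7% G and C. Such letters describe the window and are no evidence of binding.

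All intensities below are the authors' deposited values on a linear scale. A difference is log2(intensity + 16) in shLrrfip1a minus the same in the control, a scale that compresses the differences of dim genes. Each gene is represented by its brightest probe set. It was counted where the mean level of that probe set exceeded the median over the arrays (an intensity of 52.5), as it did for 11439 genes. Of the 52 genes, 30 passed, 28 of them on both arrays taken singly, while Btc and Fgf23 passed through the shLrrfip1a array only and so had to read higher there. The size used to count genes is 2-fold, a difference of 1 either way. Intensities of different probe sets are not comparable, so no order of abundance between genes is given.

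Lrrfip1 itself was lower in shLrrfip1a on each of its 3 probe sets, to between 62.2% and 70.6% of the control intensity. On the log2 scale the 3 probe sets averaged -0.55, short of 2-fold. As a check of the cell type, 13 of 14 skeletal muscle markers lay above the level filter, and all 14 summed to an intensity of 23977 in shLrrfip1a against 26294 in the control. The 13 differed in both directions, from 0.56 (Myod1) to -0.41 (Actc1). Of the 13, Myod1, Ckm, Myh3, Chrna1 and Ttn were higher and the rest lower. With arrays scaled to the spike-in controls, 8 of the 13 were higher and 5 lower.

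Among the growth factor and receptor genes, the ligands Kitl (at least 2-fold higher) and Hbegf and Pdgfc (at least 2-fold lower) passed the size. That is 1 of 30 genes higher, where 0.664% of all 11439 genes were, and 2 of 30 lower, where 0.691% of all genes were. In either direction it is 10.0% of the 30, where 1.36% of all genes passed. At 1.5-fold, 3 of the 30 were higher (2.34% of all genes) and 4 were lower (2.47% of all genes), and in either direction 4.81% of all genes passed. All 3 lay close to the line, between 1.06 and 1.08 in absolute size, and Fgf7 at 0.89 was the nearest gene short of it. The median absolute difference was 0.31 over the 30 and 0.16 over all genes, and 70.0% of the 30 differed by under 0.5, where 92.6% of all genes did. By direction 15 of the 30 were higher and 15 lower, with a median of 0.01. The 15 higher include Btc and Fgf23, whose direction was set by the filter.

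**Figure D1:**
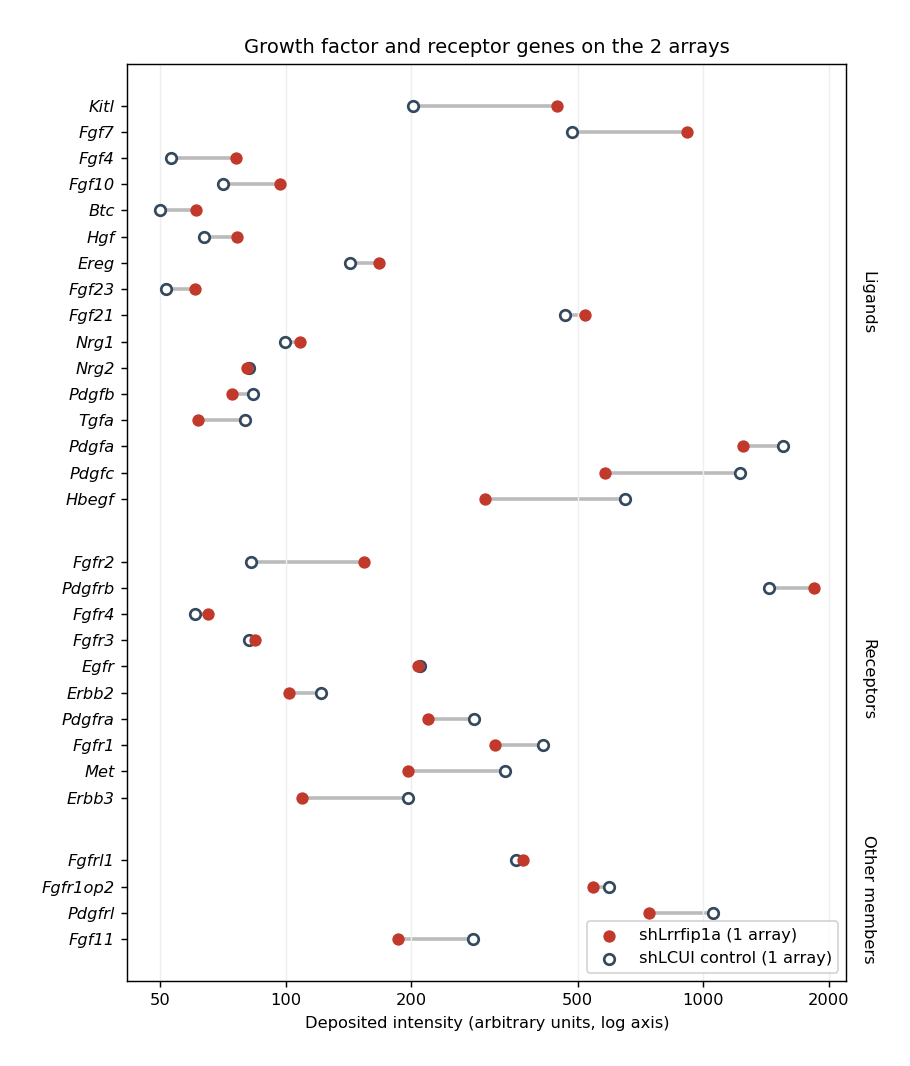
Deposited intensity (log axis) of the 30 genes above the level filter, by their brightest probe set, in shLrrfip1a (filled) and the shLCUI control (open), 1 array each. The widest gaps are those of Kitl (446 and 202), Hbegf (46.3% of the control's 648) and Pdgfc (581 and 1225); points of different genes are not comparable in level.

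Ligands differed in both directions and by family. Of 33 ligand genes 16 were above the filter, 10 of them higher and 6 lower in shLrrfip1a. The 10 include Btc and Fgf23, whose direction was set by the filter. The median difference was 0.17, against 0.00 over all genes, and it lies between Fgf21 and Fgf23. Without a filter it was 0.15, against 0.02 over all genes. Each of the 5 measured FGF ligands was higher (Fgf23 by way of the filter), and each of the 3 measured PDGF ligands was lower, although Pdgfb turned to 0.02 when the arrays were scaled to the spike-in controls. EGF family ligands split into 3 higher (Btc by way of the filter) and 3 lower. Of the 3 lower, Nrg2 (spike-in scaling or the mean over probe sets) and Tgfa (the mean over probe sets) turned higher.

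Kitl encodes stem cell factor, the ligand of the receptor Kit. Its brightest probe set read 446 in shLrrfip1a against 202 in the control, a difference of 1.08. The other 2 above the filter read 312 against 138 (1.09) and 134 against 68.8 (0.83), and a dimmer 1 read 59.9 against 25.1 (0.89). All 4 probe sets were thus higher in shLrrfip1a, by similar sizes. Averaged over the 4, the difference was 0.97, short of 2-fold.

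Fgf7, keratinocyte growth factor, is a product of mesenchymal cells that signals to epithelia through a splice form of Fgfr2. It read 912 in shLrrfip1a against 486 in the control on its brightest probe set (0.89). On the other it read 429 against 188, a difference of 1.13. Both were higher, on either side of the 2-fold line, and their mean difference was 1.01. Fgf10, a close relative of Fgf7 that uses the same receptor form, read 96.9 in shLrrfip1a against 70.9 in the control (0.38).

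None of the remaining measured FGF ligands reached 1.5-fold. Fgf21, a circulating metabolic hormone that muscle releases under stress, read 521 in shLrrfip1a against 467 in the control (0.15). Fgf4, an embryonic FGF, read 76.1 against 53.1 (0.41), but its other 3 probe sets were under the filter and the mean over all 4 differed by 0.08. Fgf23, a phosphate-regulating hormone made mainly by bone, read 60.7 against 51.7 (0.18). The other 13 FGF ligand genes were under the filter. Of these, Fgf15 read 58.3 in shLrrfip1a against 36.6 in the control (0.50) and Fgf9 read 55.3 against 47.9 (0.16). Fgf2, which is widely used to keep myoblasts cycling, read 33.2 against 40.5, and Fgf6, known for its expression in muscle, read 44.6 against 45.5.

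Of the PDGF ligands, Pdgfc passed 2-fold. Pdgfc encodes a PDGF that is secreted latent, cut by proteases such as Plat, and binds mainly Pdgfra. It read 581 in shLrrfip1a against 1225 in the control (-1.06), and 299 against 668 on its second probe set (-1.12). Both probe sets were past 2-fold. Pdgfa, the reported LRRFIP1 target, read 1247 against 1554 (-0.31) and 314 against 479 (-0.59). Pdgfa was therefore lower on both of its probe sets and short of 2-fold on each. Pdgfb read 74.5 against 83.6 (-0.14), inside the middle 50% of all genes. Pdgfd was under the filter, at 9.18 against 15.3 on its brightest probe set.

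Among EGF family ligands, Hbegf stood furthest from the others. It encodes heparin-binding EGF-like growth factor, a membrane-anchored ligand of Egfr and Erbb4 that is shed by ADAM proteases. In shLrrfip1a it read 46.3% of its control intensity of 648 (-1.07), and 128 against 278 on its second probe set (-1.03). Both probe sets were past 2-fold and close to each other. The other Egfr ligands differed by much less. Ereg, epiregulin, read 168 against 142 (0.21), and Btc, betacellulin, read 61.0 against 49.98 (0.22). Tgfa read 61.5 against 79.9 (-0.31), while its 2 dimmer probe sets differed by 0.47 and 0.28, so its direction was not settled. Egf read 53.7 in shLrrfip1a against 43.4 in the control and was under the filter.

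The neuregulins, ligands of Erbb3 and Erbb4 that act at the nerve-muscle contact, were near level. Nrg1 read 108 in shLrrfip1a against 99.7 in the control (0.10) and Nrg2 read 80.7 against 81.8 (-0.02), while Nrg3 and Nrg4 were under the filter. Hgf, which activates quiescent muscle stem cells, had 3 probe sets above the filter. They read 76.5 against 63.8 (0.21), 68.4 against 60.0 (0.15) and 86.4 against 52.8 (0.57). All 3 were higher in shLrrfip1a and short of 2-fold.

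**Figure D2:**
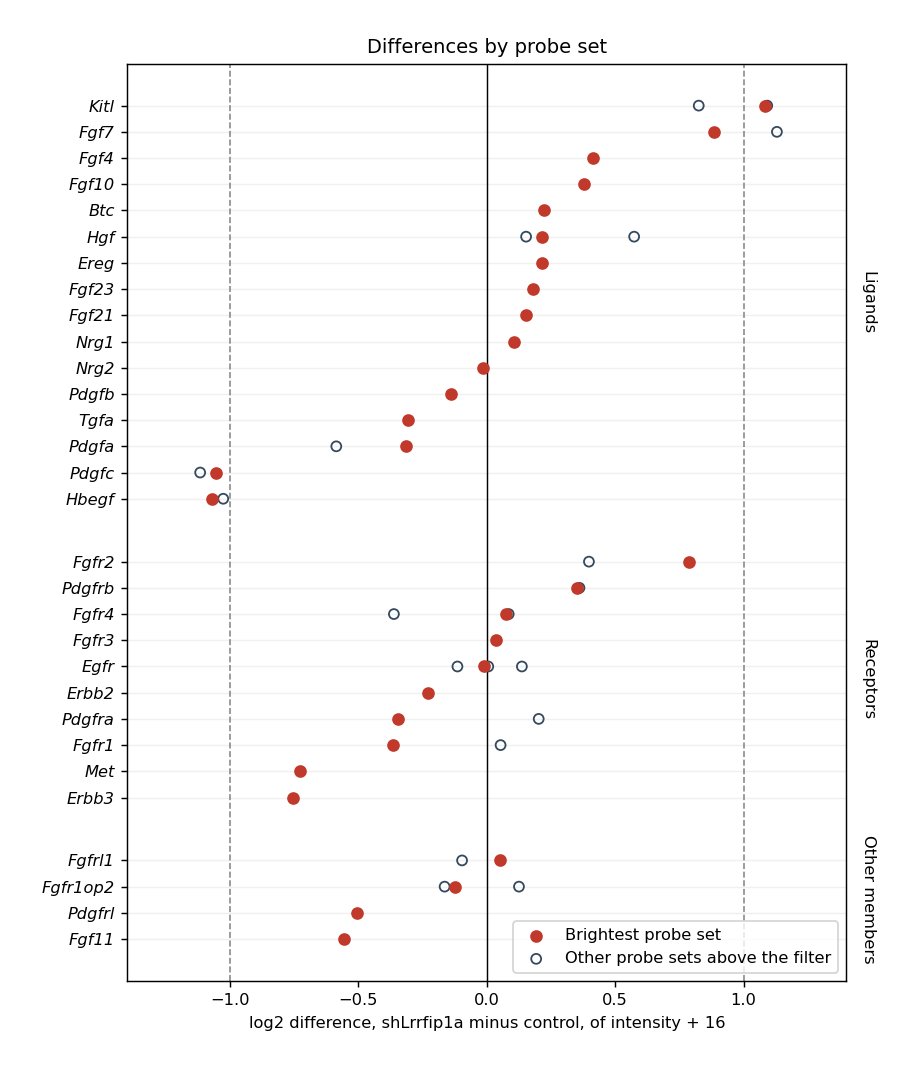
Difference of log2(intensity + 16), shLrrfip1a minus control, for every probe set above the level filter of the 30 genes; filled points are the brightest probe set of a gene, open points its others, and dashed lines mark 2-fold. Kitl, Fgf7, Pdgfc and Hbegf keep their side of 0 on each probe set, whereas Egfr, Pdgfra, Fgfr1 and Fgfr4 have probe sets on both sides. For Pdgfra and Fgfr4, the direction of some of these was set by the filter.

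Of 12 receptor genes 10 were above the filter, 4 higher and 6 lower, and none reached 2-fold. Of these, Fgfr3, Fgfr4 and Egfr lay on the other side of 0 under at least 1 alternative scaling or average. Their median difference was -0.12, which is 0.29 below that of the ligands (0.14 without a filter), and each median rests on few genes. With spike-in scaling the receptor median was 0.05, while the median of all genes moved to 0.17. Without a filter the receptor median was 0.01, against 0.02 over all genes. The ligand and receptor medians are descriptions over genes that share 2 RNA samples.

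Egfr, the other reported LRRFIP1 target, was level between the arrays. Its brightest probe set read 207 in shLrrfip1a against 209 in the control (-0.01). The other 3 above the filter read 156 against 155 (0.01), 118 against 106 (0.14) and 53.5 against 59.2 (-0.11). No Egfr probe set approached 2-fold, and 95.7% of all genes had a larger absolute difference than its brightest probe set. Neither reported target was higher past 2-fold in shLrrfip1a, with Egfr level and Pdgfa lower.

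The Erbb receptors partner with Egfr and bind neuregulins. Erbb3, which binds neuregulins but has a weak kinase, read 109 in shLrrfip1a against 196 in the control (-0.76), and 32.9 against 45.6 on a probe set under the filter (-0.33). Erbb2, which binds no ligand and acts as a partner, read 102 against 122 (-0.23). Erbb4 was near the bottom of both arrays at 6.04 and 2.91. All 3 measured receptors of the family read lower, but Egfr lay on the other side of 0 with quantile normalization (0.003), spike-in scaling (0.16) and the mean over probe sets (0.07).

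Met, the HGF receptor, read 196 in shLrrfip1a against 335 in the control (-0.73). A dim probe set read 28.2 against 21.0 (0.26), and the mean over both was -0.23. Its brightest probe set was thus lower while all 3 Hgf probe sets were higher. Kit, the receptor of Kitl, was under the filter, at 43.7 against 31.8 and at 27.2 against 15.5. Kit is best known in mast cells, germ cells and blood stem cells.

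FGF receptors differed among themselves. Fgfr2 read 154 in shLrrfip1a against 82.5 in the control (0.79), 72.4 against 51.1 on a second probe set (0.40) and 34.2 against 31.4 on a dim further one (0.08), with a mean of 0.42. The second Fgfr2 probe set passed through the shLrrfip1a array only, so its direction was set by the filter. Fgfr2 was the highest of the receptors in its difference, and which splice forms its probe sets read was not analysed here. Fgfr1, the main FGF receptor of myoblasts, read 317 against 413 (-0.36) and 129 against 123 (0.05), with a mean over its probe sets of -0.13. Fgfr4, which is associated with developing and regenerating muscle, had no settled direction, at 64.9 against 60.8 (0.08), 55.7 against 51.6 (0.09) and 51.5 against 70.7 (-0.36), while a probe set under the filter read 34.3 against 70.4 (-0.78). The Fgfr4 probe sets at 0.09 and -0.36 each passed through a single array, so their directions were set by the filter. Fgfr3 read 84.2 against 81.7 (0.04).

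Of the 2 PDGF receptors, Pdgfrb was higher on both probe sets and Pdgfra had no settled direction. Pdgfrb, a marker of mural and mesenchymal cells, read 1838 in shLrrfip1a against 1437 in the control (0.35) and 513 against 396 (0.36). Pdgfra, the receptor for PDGF-A and PDGF-C, read 219 against 283 (-0.35) on its brightest probe set, but 58.9 against 49.1 (0.20) on a dimmer one, and the mean over its probe sets was -0.06. That dimmer Pdgfra probe set passed through the shLrrfip1a array only, so its direction was set by the filter. Pdgfrl, a receptor-like protein without a kinase domain, read 739.6 against 1058 (-0.51). Fgfrl1, an FGF receptor without the kinase domain, read 369 against 356 (0.05) and 120 against 129 (-0.10).

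The intracellular Fgf11, a relative of FGFs that binds sodium channels, read 186 in shLrrfip1a against 281 in the control (-0.56). Its other probe set, under the filter, differed by -0.06, and the mean over both was -0.31. The related Fgf12, Fgf13 and Fgf14 were under the filter. Fgfr1op2, named for a fusion with FGFR1 in human leukaemia, read 545 against 595 (-0.12). In all, 19 of the 52 genes stayed under the level filter on both arrays by their brightest probe set, with intensities of 2.91 to 47.4. No detection calls were available, so none is declared absent. Of 14 genes with several probe sets above the filter, 8 had all of them in the same direction (57.1%), where 60.3% of all such genes did. Fgfr2 among the 8, and Pdgfra and Fgfr4 among the others, had probe sets whose direction was set by the filter.

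**Figure D3:**
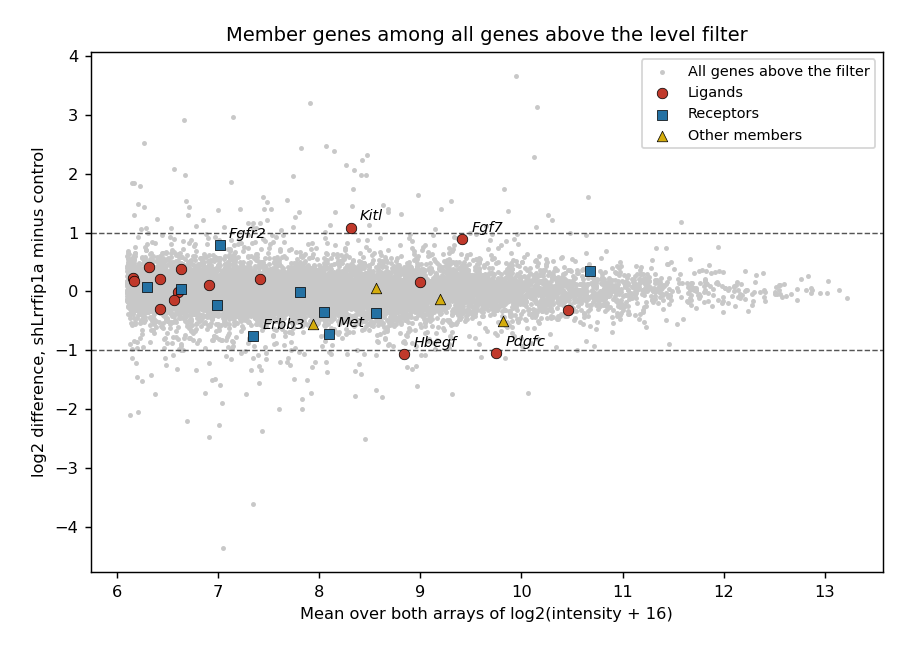
Difference of log2(intensity + 16), shLrrfip1a minus control, against the mean of log2(intensity + 16) over both arrays for all 11439 genes above the filter (grey), with ligands as circles, receptors as squares and other members as triangles; dashed lines mark 2-fold. Kitl lies just above the upper line and Hbegf and Pdgfc just below the lower one, while single genes elsewhere on the arrays reach 3.67 and -4.37.

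The genes that carry these signals onward were described through 7 lists drawn from textbook pathways. Among 93 listed genes above the filter, 1 was 2-fold higher and 2 were 2-fold lower, where 0.664% and 0.691% of all genes were. Genes of FGF co-receptors and heparan sulfate carriers had none past 2-fold among 10 (median -0.05, but 0.13 with spike-in scaling). Gpc6, a glypican, read 435 in shLrrfip1a against 232 in the control (0.87). Flrt2, a membrane protein of a family that binds FGF receptors, read 281 against 421 (-0.56), and the neuropilin Nrp2 read 790.2 against 612 (0.36). The other Nrp2 probe sets above the filter differed by 0.42, 0.22 and -0.18, so they did not share a direction. Each of the 5 Gpc6 probe sets above the filter was higher, by 0.28 to 1.03. The Gpc6 probe set at 0.74 passed through the shLrrfip1a array only, so its direction was set by the filter.

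Receptor adaptors had none past 2-fold among 18 genes (median -0.07). The largest differences were those of Stat3, a transcription factor that receptors can phosphorylate, at 326 in shLrrfip1a against 492 in the control (-0.57), of the docking protein gene Gab2 at 95.7 against 146 (-0.54), and of Grb14 at 373 against 252 (0.54). The RAS, RAF, MEK and ERK list also had none among 11 genes (median -0.07), led by Nras (244 against 346, -0.48), Rras (408 against 567, -0.46) and the MEK kinase gene Map2k1 (757 against 1018, -0.42). Both medians turned positive, to 0.11 and 0.10, with spike-in scaling.

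The PI3 kinase and AKT list had 1 gene 2-fold higher among 9, where 0.664% of all genes were, and none lower (median 0.10, but 0.28 with spike-in scaling). Pik3r3, a regulatory subunit of PI3 kinase, read 439 in shLrrfip1a against 162 in the control (1.35). Pik3r1, the main regulatory subunit, read 1038 against 517 (0.98), and its other 3 probe sets were higher by 0.49 to 1.09. The catalytic subunit genes Pik3ca and Pik3cd differed by -0.14 and -0.20. Inppl1, a lipid phosphatase that counteracts the pathway, read 469.96 against 570.4 (-0.27). Pik3r3 and Pik3r1 were thus the furthest from level in this list, while a further regulatory subunit gene, Pik3r2, differed by 0.21.

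Feedback inhibitors had none past 2-fold among 18 genes, 11 of them lower (10 with spike-in scaling). Their median was -0.19, but -0.02 with spike-in scaling, -0.10 when probe sets were averaged and -0.09 when the filter was raised to the 75th percentile. Errfi1, which binds and blocks Egfr, read 267 in shLrrfip1a against 499 in the control (-0.86) and differed by -0.61 on its other probe set. Dusp6, a phosphatase specific for ERK, read 129 against 181 (-0.44), and Socs2 read 619.5 against 837 (-0.42) and was lower on all 6 of its probe sets. The Socs2 probe set at -0.59 passed through the control array only, so its direction was set by the filter. The smallest Socs2 difference was -0.03. The sprouty genes Spry1 and Spry2 differed by -0.33 and 0.33.

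ERK-responsive genes had 2 of 17 2-fold lower and none higher (median -0.23), where 0.691% of all genes were 2-fold lower. The median was -0.05 with spike-in scaling, without a filter and with the mean over probe sets. Ier3, an immediate early gene whose product limits cell death and is not a transcription factor, read 195 in shLrrfip1a against 658 in the control (-1.68). Egr2, an early growth response factor, read 92.5 against 257 (-1.33), with -1.36 on its second probe set. Egr1 read 789 against 1460.3 (-0.87). Egr3 (-0.83, but -0.07 on its second probe set) and Ets2 (-0.62), named after their values were seen, were also at least 1.5-fold lower on their brightest probe sets. Of other immediate early genes, Fos at -0.05, Junb at 0.13, Myc at -0.04 and Ier2 at 0.10 were near level. Jun was higher at 0.28 and Fosl1 lower at -0.34.

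Ligand-processing proteases and their inhibitors had none past 2-fold among 10 genes (median -0.14, but 0.04 with spike-in scaling). Adam12, a protease of fusing myoblasts that can shed Hbegf, read 249.7 in shLrrfip1a against 382 in the control (-0.58), and -0.19 on its other probe set. Plat, tissue plasminogen activator, read 554 against 777 (-0.48). Adam17, the main shedding enzyme for several Egfr ligands, read 250.2 against 351 (-0.46) and was lower on its other 2 probe sets. Adam10 was near level at 0.09.

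**Figure D4:**
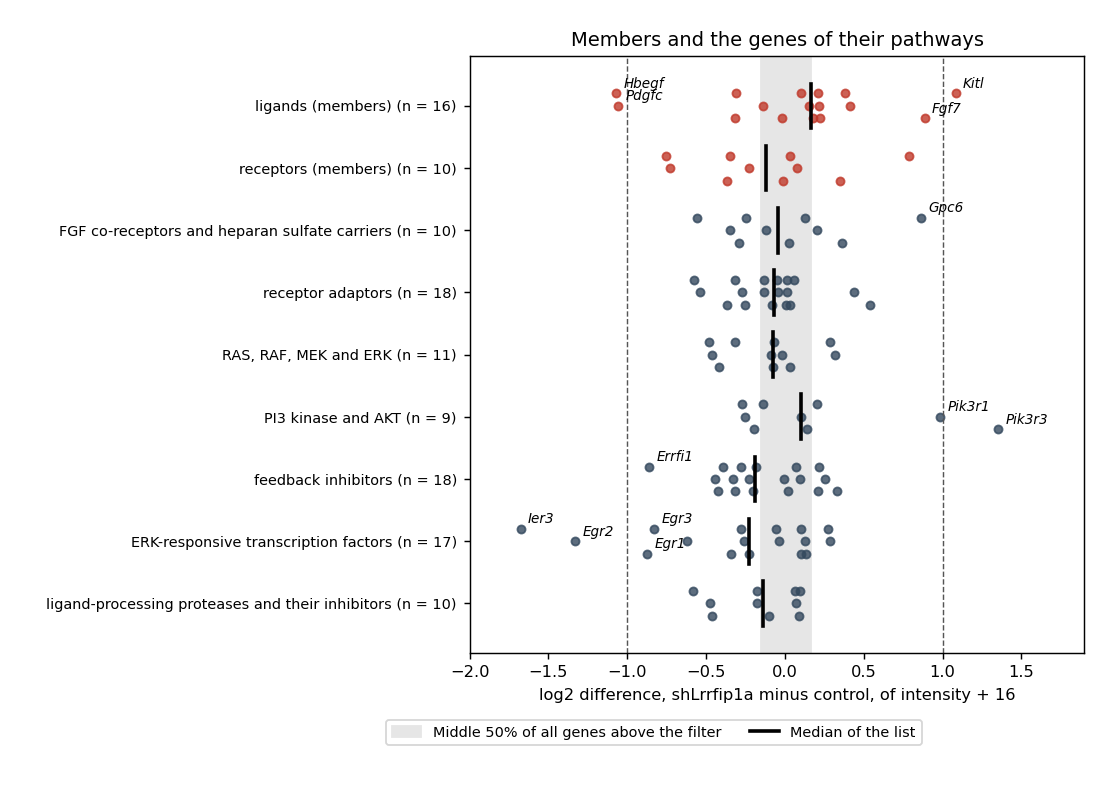
Difference of log2(intensity + 16), shLrrfip1a minus control, for each gene above the filter among ligands, receptors and the 7 pathway lists; bars are list medians, the shaded band holds the middle 50% of all genes (-0.15 to 0.16) and dashed lines mark 2-fold. Pik3r3 lies beyond the upper line, and Ier3 and Egr2 lie beyond the lower one.

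Markers of other cell states were read beside these results. In whole-culture RNA, fewer cells of a type and less RNA per cell cannot be told apart. All 5 cycling myoblast markers above the filter were lower in shLrrfip1a (3 of 5 with spike-in scaling), with a sum of 3079 over the 6 measured against 3691 in the control, led by Myf5 (-0.83). Of 8 fibroblast markers 7 were above the filter, 3 of them higher and 4 lower, with Dcn at 3.67 and Dpt at -1.73. Dpt (48.4 in shLrrfip1a against 197 in the control) passed through the control array only, so its direction was set by the filter. The 8 summed to 22229 against 19540.4, but without Dcn the other 7 summed to 18732 against 19280.0. Of 6 smooth muscle and mural markers 5 passed, 1 of them higher (Acta2) and 4 lower. The 6 summed to 10002 against 9025, but without Acta2 the other 5 summed to 2032 against 2369.9. No adipocyte marker of 4 passed, and the 4 summed to 97.5 against 94.5. Of 5 macrophage and leukocyte markers 2 passed, and the 5 summed to 264 against 255. Of 5 endothelial markers only Kdr passed, by way of the shLrrfip1a array, and the 5 summed to 205 against 133. Kdr alone gave 118 against 48.0 of these sums, and the others stayed between 8.90 and 33.6 on both arrays. No marker was at 0 on either array, and the part of these shifts in the growth factor differences was not tested.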

How the data were processed

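The authors deposited 1 intensity per probe set and array, linear with a floor of 1. Per the labels' protocols, biotin-labelled cRNA came from 6 ug of Trizol-extracted total RNA. How probes were summarised, corrected and scaled, and any detection calls, are not stated in the labels or files used here. Array medians were 53.5 in shLrrfip1a and 51.4 in the control, and the number of arrays limits the precision. Of 45101 probe sets, 64 are controls, 34945 others had 1 symbol in the platform annotation and 932 several, and 9211 had none. All 52 members matched the GRCm38.p6 gene table by identifier, and the files name no genome build. Differences were computed from log2(intensity + 16), with no further scaling (Python 3.11.15; numpy 2.4.6; pandas 2.3.3; statsmodels 0.14.6), and the scripts were tested on simulated data. No statistical test was run, since each group has 1 array. The members and lists were chosen with earlier results of these data known. The text names all probe sets of Egfr, Pdgfa and Lrrfip1 that pass the filter, every member above the filter level on either array, and in each pathway list the 3 largest differences and every gene past 2-fold. Alternatives were 4 scalings (by medians, quantiles, a loess trend, or 42 spike-in probe sets), pseudocounts of 1 and 64, no filter or one at the 75th percentile, the mean over probe sets, and thresholds of 1.5-fold and 3-fold. Some listed pathway genes were not analysed here.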

Additional observations from a re-analysis of the deposited data

How the results depend on the processing

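No paired analysis was possible because there was a single array of each kind, and for the same reason no array can be left out. The counts of members past 2-fold, 1 higher and 2 lower, were 2 and 0 with spike-in scaling, 0 and 0 with a pseudocount of 64, 3 and 4 at 1.5-fold (Kitl, Fgf7 and Fgfr2 against Hbegf, Pdgfc, Erbb3 and Met), and 0 and 0 at 3-fold. Spike-in scaling moved the median of all genes to 0.17, brought Fgf7 to 1.07 and left Hbegf at -0.89 and Pdgfc at -0.87. Over all genes the counts were 76 higher and 79 lower as reported, 121 and 54 with spike-in scaling, and 51 and 44 with a pseudocount of 64 (96 and 105 for 1). They were 268 and 282 at 1.5-fold, 28 and 23 at 3-fold, and 48 and 46 with the filter at the 75th percentile. With the mean over probe sets Fgf7 replaced Kitl as the 1 gene past 2-fold higher. Over 7 scalings, pseudocounts and averages, Kitl ranged from 0.94 to 1.26, Fgf7 from 0.83 to 1.07, Hbegf from -1.12 to -0.89 and Pdgfc from -1.10 to -0.87. The ligand and receptor medians, their difference and the values of Egfr, Pdgfa and Lrrfip1 moved by less than the robust spread of all gene differences (0.23). That spread is larger than the ligand median (0.17) and the size of the receptor median (-0.12). The receptor median turned to 0.01 without a filter and to 0.05 with spike-in scaling. Ligands minus receptors ranged from 0.14 without a filter to 0.50 with the filter at the 75th percentile, where the receptor median was -0.35. Of the 30 members above the filter, 8 lay on the other side of 0 under at least 1 alternative: Egfr, Fgfr3, Fgfr4, Fgfrl1, Fgfr1op2, Pdgfb, Tgfa and Nrg2. In the pathway lists, spike-in scaling added 1 co-receptor gene and 1 PI3 kinase gene to those past 2-fold higher, a pseudocount of 1 brought the PI3 kinase list to 2, and at 3-fold that list had 0 and the ERK-responsive list 1.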

Other observations

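Among the marker genes read beside the members, Kdr, a receptor tyrosine kinase for VEGF listed here as an endothelial marker, read 118 in shLrrfip1a against 48.0 in the control, a difference of 1.07. It lay above the filter level on the shLrrfip1a array only, so it passed through the array on which it was higher. The other endothelial markers Pecam1, Cdh5, Tek and Vwf stayed between 8.90 and 33.6 on both arrays. Pax7, the factor of muscle stem cells, read 22.6 in shLrrfip1a against 70.4 in the control. Its mean level lay under the filter.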
